A study of Mus musculus with 4 samples.

Results

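Chromatin accessibility was examined at 8 genes that encode laminin chains, *Lama1*, *Lama3*, *Lama4*, *Lama5*, *Lamb1*, *Lamb2*, *Lamb3* and *Lamc1*, out of 22350 protein-coding genes of the mouse annotation (GENCODE vM1, genome build mm9). The genes were chosen by name, with earlier results of these data known. For each gene, accessible regions were collected within 1000 bp of the transcription start site (TSS) of any of its annotated transcripts, and over a window of the gene body with 20 kb added on both sides. The 8 windows spanned 1119 kb, did not overlap each other, and held 19 of 19648 regions of the vehicle list, 33 of 38532 of the TGFβ list and 29 of 26732 of the 10 min list. The cells were NMuMG, an established epithelial line from the normal mouse mammary gland, and the assay was ATAC-seq, in which the transposase Tn5 inserts adapters where DNA is not covered by nucleosomes. In complete medium (10% serum and insulin), cells received vehicle (HCl and BSA) or 5 ng/ml TGFβ1 for 2 h. A separate experiment used cells deprived of serum and insulin for 6 h, which were given vehicle or the same dose of TGFβ1 for 10 min. A characteristics field of the TGFβ sample in that experiment gives 2 h, while its title gives 10 min, and the title was followed. Each complete-medium sample has its own peak list. The labels of both 10 min samples name a single list, so this list belongs to the experiment, and vehicle and TGFβ cannot be compared within it.

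Laminins are the main glycoproteins that organize the basement membrane, the sheet of extracellular matrix under every epithelium. A laminin is a trimer of an α, a β and a γ chain joined through a coiled coil. The α chain carries the globular domains that bind integrins and dystroglycan on the cell surface, while the short arms of the chains link trimers into a network. In the mammary gland, contact with laminin supports the polarity and differentiation of the epithelial cells. In an epithelial-mesenchymal transition, which TGFβ can induce in NMuMG cells, cells leave the basement membrane. The chains encoded by *Lama3* and *Lamb3* are part of the laminin of hemidesmosomes, the junctions that anchor the epithelium to the basement membrane.

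There was 1 list per condition, so no difference between conditions could be tested and no p-value is given. The lists carry no read counts per region. Read totals of the libraries are stated by the study, where the 2 h TGFβ library is not the deeper of the complete-medium pair. These totals were not used here, and an effect of depth on the lists was not tested. Intervals in the text cover counting alone, and regions of the same gene are neighbors, not independent replicates. A gene without a region had no reproducible peak call, which is not the same as closed chromatin. Each peak has the authors' score, a scaled irreproducible discovery rate (IDR) with a minimum of 540 and a cap of 1000. It ranks peaks within a list and is not a signal intensity. As a check of the cell label, a region at a TSS was found in all lists for the keratin genes *Krt8*, *Krt18* and *Krt19*, and in the 10 min list alone for *Cdh1* (E-cadherin). Of 7 epithelial markers, *Epcam*, *Esrp1* and *Cldn7* had no region at a TSS in any list. None of 7 markers of leukocytes, endothelium, hepatocytes, cardiomyocytes or glia had one, and their windows held 2 vehicle, 9 TGFβ and 8 10 min regions in all.

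The laminin genes differed widely in the number of regions. *Lama1* had none in any list, while *Lamc1* had 6 with vehicle and 8 in each of the other lists. More regions were listed after TGFβ than with vehicle at 6 of the 8 genes (*Lama3*, *Lama4*, *Lama5*, *Lamb1*, *Lamb3* and *Lamc1*), compared with 48.2% of all protein-coding genes. The numbers were equal at *Lama1* and *Lamb2*, and no laminin gene had fewer, whereas 2.07% of all genes did. At 6 genes, at least 1 TGFβ region overlapped no vehicle region, as at 50.2% of all genes. The largest gap was at *Lamb3*, with 1 vehicle and 5 TGFβ regions. Without the flanks, its gene body held 0 vehicle and 2 TGFβ regions. Laminin windows are long, with a median of 129.1 kb against 55.43 kb for all protein-coding genes, and a long window has more room for regions. Per 100 kb, the median laminin gene had 1.57 vehicle, 4.52 TGFβ and 3.56 10 min regions, and the median protein-coding gene 1.48, 2.36 and 1.95. Pooled over windows, which gives long genes their weight, the laminin densities were 1.7, 2.95 and 2.59 and those of all genes 1.5, 2.54 and 2.02, so the gap was smaller than between the medians in the TGFβ and 10 min lists.

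**Figure D1:**
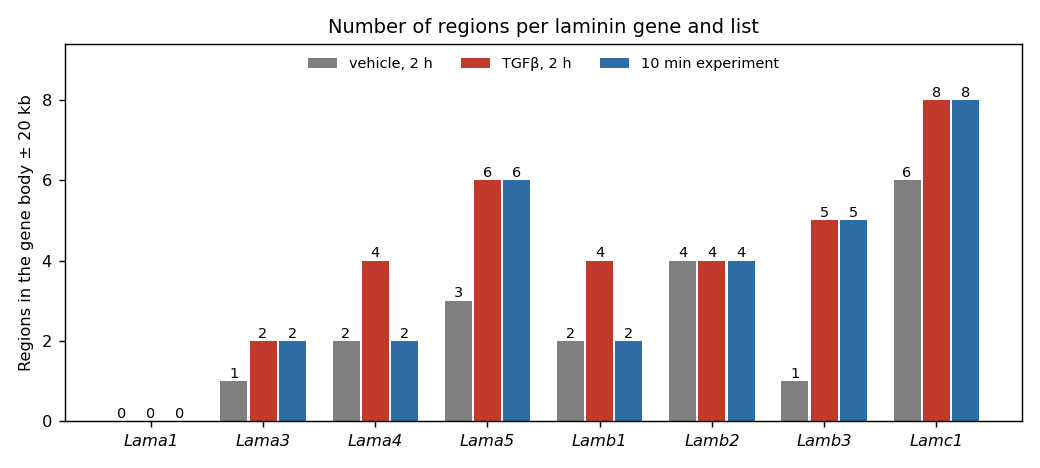
Number of regions (y axis) in the gene body ± 20 kb of each laminin gene (x axis), as bars for the vehicle, TGFβ and 10 min lists, with the count printed on each bar. *Lamb3* goes from 1 vehicle region to 5 TGFβ regions, *Lamb2* has 4 in every list and *Lama1* has 0.

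**Figure D2:**
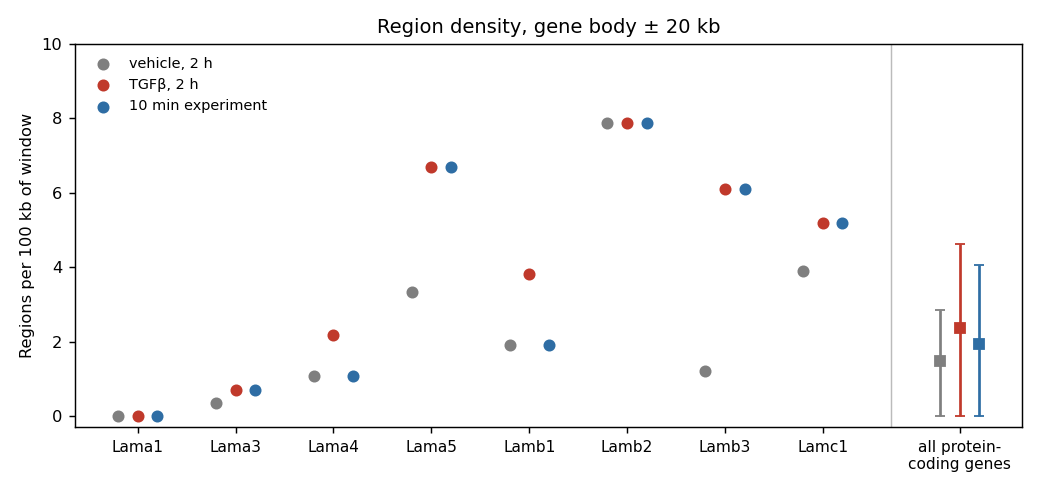
Regions per 100 kb of window (y axis) for each laminin gene and list, with the median (square) and quartiles (bars) over 22350 protein-coding genes at the right. *Lamb2* has the highest density, 7.89 in every list, and the vehicle value of *Lamb3*, 1.22, lies below its TGFβ value of 6.1.

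In the laminin windows together, TGFβ regions outnumbered vehicle regions 33 to 19, a ratio of 1.74 (exact 95% interval 0.959 to 3.23). Over the whole lists it was 1.96 (1.93 to 2.0), and over the windows of all protein-coding genes, summed, it was 1.7 (1.67 to 1.72). Both lay inside the interval of the laminin ratio. The laminin ratio depended on how the lists were matched. It was 0.947 (0.469 to 1.91) when the TGFβ list was reduced to its 19648 highest-scoring regions. In that setting the whole lists are equally long by construction. The ratio was 4.0 (1.29 to 16.4) when only peaks at or above the median score of their own list were used. This left 4 vehicle and 16 TGFβ regions, and the ratio over the whole lists was not computed for this setting. Vehicle regions covered 8.87 kb of the windows, TGFβ regions 18.7 kb and 10 min regions 16.6 kb.

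Joined wherever they overlapped, the regions formed 36 loci. Of these, 19 were present in all lists, 7 in the TGFβ and 10 min lists, 7 in the TGFβ list alone and 3 in the 10 min list alone. No locus was restricted to the vehicle list. Joined loci were not counted over the whole lists, so the locus counts in this paragraph are a description. Each of the 19 vehicle regions was met by a TGFβ region (lower 95% Wilson bound 83.2%), compared with 93.6% of the whole vehicle list, of which 6.44% had no TGFβ partner. A vehicle region without a TGFβ partner was found at no laminin gene and at 6.93% of all genes. Conversely, 14 of the 33 TGFβ regions overlapped no vehicle region (42.4%, 27.2 to 59.2%), compared with 52.4% of the whole TGFβ list. Both shares of the whole lists lay within the counting intervals of the laminin shares. Most laminin loci were away from promoters: 27 of the 36 were more than 1000 bp from any annotated TSS, 4 were at a laminin TSS and 5 at the TSS of another gene. In the TGFβ list 8 of 33 laminin regions were at a TSS (24.2%, 12.8 to 41.0%), compared with 28.4% of the list.

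**Figure D3:**
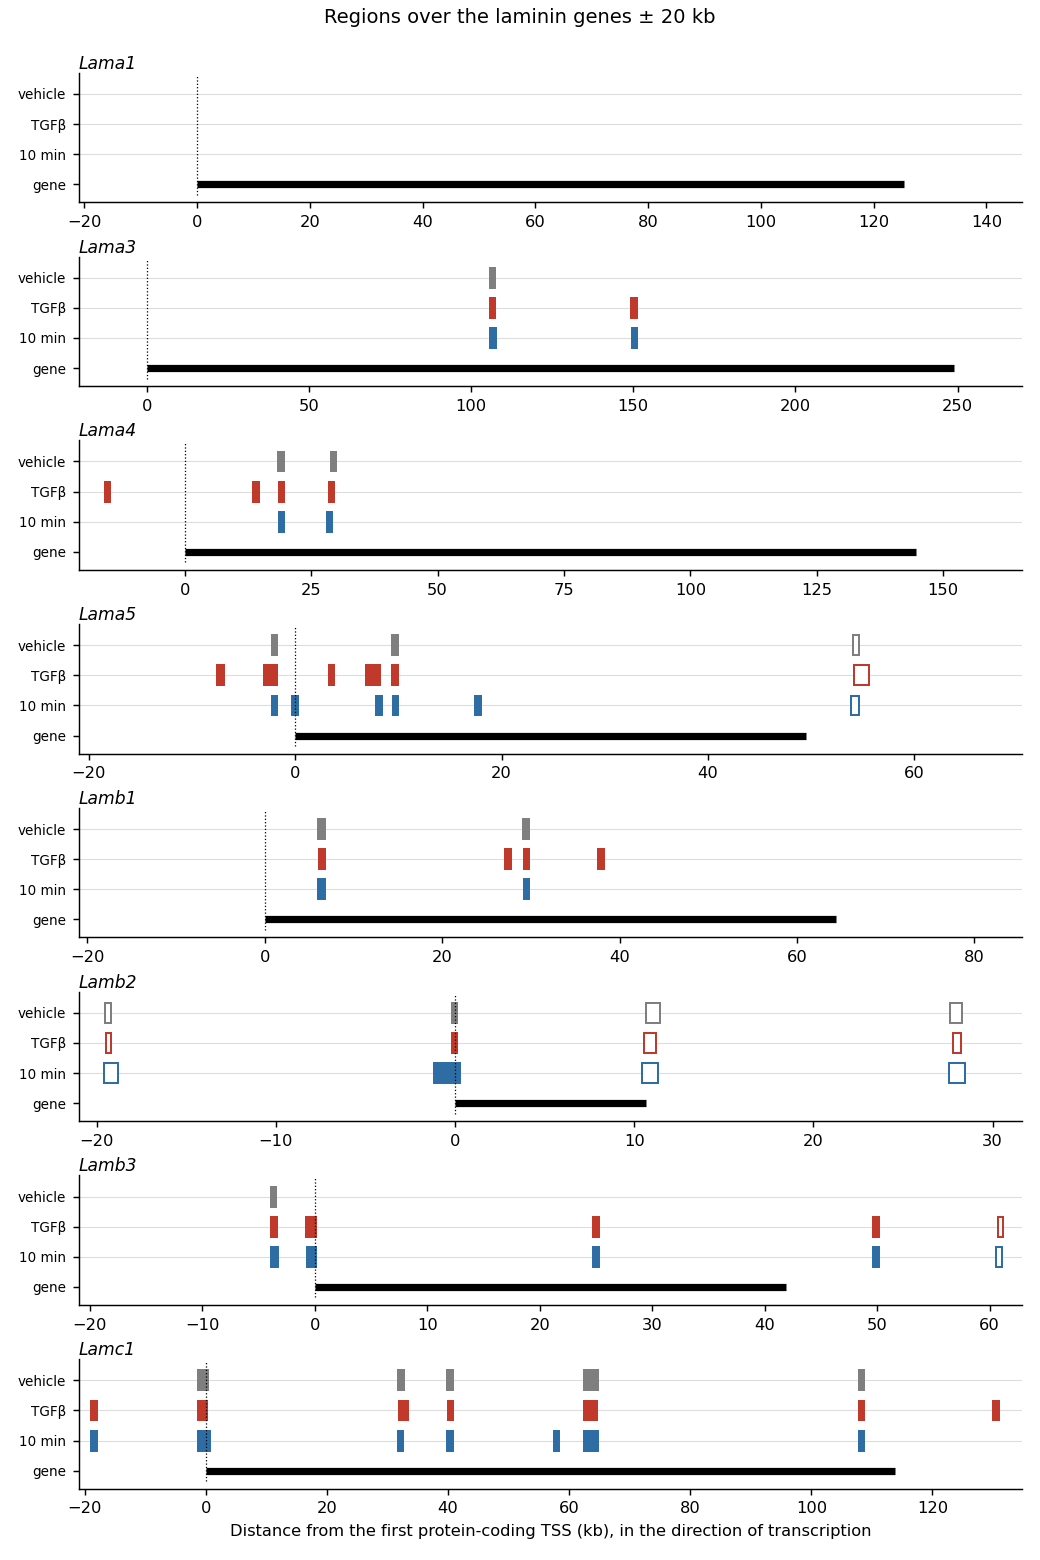
Regions of the vehicle (gray), TGFβ (red) and 10 min (blue) lists along each laminin gene ± 20 kb, against the distance in kb from the first protein-coding TSS (dotted line) in the direction of transcription, with the gene body as a black bar. Open boxes are regions at the TSS of another gene, and narrow regions are drawn at a minimum visible width, so their boxes are not to scale. Red and blue boxes without a gray partner gather at *Lamb3*, and *Lama1*, *Lama3*, *Lama4* and *Lamb1* have no box at a TSS.

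With vehicle, 2 laminin genes had a region at a TSS (*Lamb2* and *Lamc1*), compared with 41% of protein-coding genes. With TGFβ, 3 had one (*Lamb2*, *Lamb3* and *Lamc1*), compared with 47.6%. At 10 min, 4 had one (these and *Lama5*), compared with 46.3%. For *Lama1*, *Lama3*, *Lama4* and *Lamb1* no list had one, as for 50.4% of all genes. *Lamb3* had a TSS region in the TGFβ but not in the vehicle list, a pattern found for 7.24% of protein-coding genes. The reverse was found for no laminin gene and for 0.622% of all genes. The *Lama5* TSS had a region in the 10 min list alone, a pattern found for 1.35%. The 300 bases upstream of the first protein-coding TSS are shown for *Lamb3* and *Lamb2*, whose promoters had a TGFβ-list region, and for *Lamb1*, which had none although its CpG content was above the median. Capitals mark consensus matches for SMAD factors (CAGACA or GTCTAGAC), AP-1 (TGACTCA, which reads TGAGTCA on the other strand) and ETS factors (ACCGGAAGT with 1 mismatch allowed), searched on both strands. Sequences were read from the mm9 genome, 5′ to 3′ on the strand of the gene.
*Lamb3* promoter (chr1:195127851-195128150, plus strand): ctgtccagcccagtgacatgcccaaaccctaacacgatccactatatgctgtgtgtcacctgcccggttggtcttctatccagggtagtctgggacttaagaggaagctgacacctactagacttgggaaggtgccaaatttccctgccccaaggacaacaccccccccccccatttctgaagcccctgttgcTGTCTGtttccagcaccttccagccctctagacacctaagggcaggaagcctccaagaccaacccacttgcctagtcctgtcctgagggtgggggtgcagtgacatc
*Lamb2* promoter (chr9:108381893-108382192, plus strand): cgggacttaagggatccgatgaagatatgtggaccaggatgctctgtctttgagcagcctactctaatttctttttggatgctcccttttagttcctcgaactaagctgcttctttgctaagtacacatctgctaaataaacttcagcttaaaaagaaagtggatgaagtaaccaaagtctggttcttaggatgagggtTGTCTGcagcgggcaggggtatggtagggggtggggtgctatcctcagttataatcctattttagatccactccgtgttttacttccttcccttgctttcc
*Lamb1* promoter (chr12:31949799-31950098, plus strand): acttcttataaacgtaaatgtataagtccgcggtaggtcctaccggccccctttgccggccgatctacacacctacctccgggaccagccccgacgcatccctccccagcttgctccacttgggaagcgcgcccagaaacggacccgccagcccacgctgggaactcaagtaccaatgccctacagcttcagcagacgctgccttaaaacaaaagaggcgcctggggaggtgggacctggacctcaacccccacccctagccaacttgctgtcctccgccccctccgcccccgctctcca

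The printed promoters differed in base composition. In the stretches shown, *Lamb1* had 19 CpG dinucleotides and a GC content of 62.0%, *Lamb2* 5 and 44.7%, and *Lamb3* 2 and 56.3%. *Lamb3* and *Lamb2* each had a single SMAD match, TGTCTG on the strand shown, which starts 107 bases upstream of the TSS of *Lamb3* and 101 bases upstream of that of *Lamb2*. *Lamb1* had no match to any of these motifs. A SMAD match occurred in 18.7% of the 22342 protein-coding promoters over the same 300 bases, an AP-1 match in 4.45% and an ETS match in 8.1%. A match describes the sequence and is no evidence of binding.

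Over 500 bp on either side of the TSS, the ratio of observed to expected CpG was 0.787 at *Lamc1*, 0.658 at *Lama5*, 0.608 at *Lama1*, 0.591 at *Lamb1*, 0.525 at *Lama3*, 0.349 at *Lama4*, 0.267 at *Lamb2* and 0.195 at *Lamb3*. The median over protein-coding genes was 0.554. Of the 4 laminin genes above that median, 1 had a TSS region in the TGFβ list, whereas 76.8% of all genes above it did. Of the 4 below, 2 had one, whereas 18.5% of all genes below did. The 2 below were *Lamb2* and *Lamb3*, the lowest of the 8, while *Lama1*, *Lama5* and *Lamb1*, above the median, had no TGFβ region at a TSS. With 4 genes on each side these counts are a description.

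**Figure D4:**
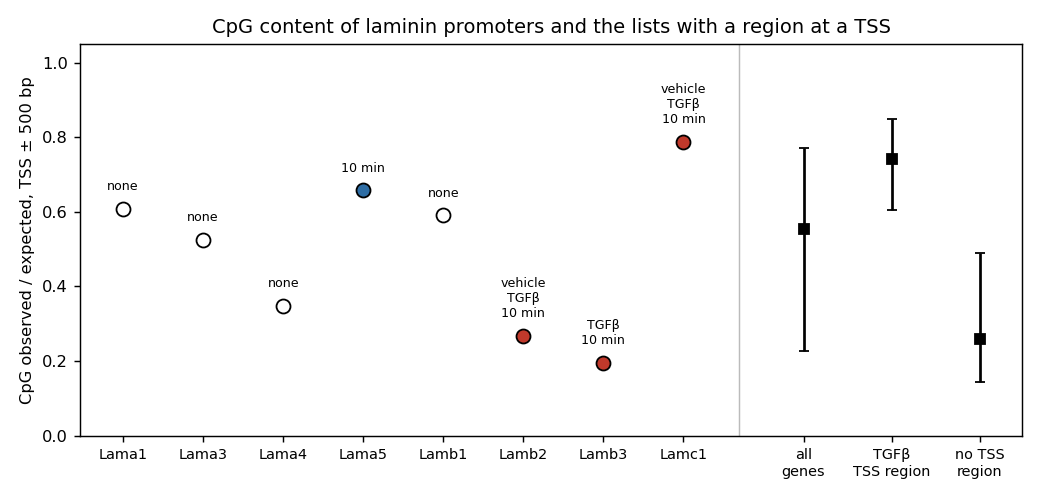
Ratio of observed to expected CpG within 500 bp of the first protein-coding TSS (y axis) for each laminin gene, labeled with the lists that have a region at a TSS of the gene (red, TGFβ list among them; blue, 10 min list alone; white, none). Squares and bars at the right give the median and quartiles over all protein-coding genes (median 0.554), those with a TGFβ-list TSS region (0.743) and those with no TSS region in any list (0.259).

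*Lamb3* (chr1:195128151-195170072, plus strand) encodes the β chain of the hemidesmosome laminin. This gene had the most regions that were absent from the vehicle list. The vehicle list had a single region in its window, chr1:195124263-195124726, upstream of the gene, with the score cap. The TGFβ list had 5 regions with scores of 1000, 1000, 1000, 875 and 1000, in order along the gene. The 10 min list had 5 as well, with scores of 999, 632, 666, 718 and 672. Regions of the TGFβ and 10 min lists overlapped pair by pair. The TSS region spanned 901 bp with TGFβ (chr1:195127402-195128302) and 789 bp at 10 min. Further regions lay in intron 8 of *Lamb3* (chr1:195152939-195153409 in the TGFβ list, 25 kb past the TSS), in an intron of the neighboring kinase gene *Camk1g* (chr1:195177841-195178262) and within 1000 bp of the *Camk1g* TSS (chr1:195188881-195189359). The last of these lay 600 bp from the *Camk1g* TSS and 61 kb from the *Lamb3* TSS. Both regions in *Camk1g* were nearest to the *Camk1g* TSS. Of these 4 loci without a vehicle region, 3 had the score cap in the TGFβ list. When the TGFβ list was shortened to the length of the vehicle list, 4 of its 5 regions remained, the TSS region among them. The TSS region was also kept at a minimum width of 300 bp, with peaks at or above the median score and within 200 bp of the TSS. The vehicle list had no region there under any of the alternatives, also when intervals under 150 bp were admitted.

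The upstream region listed in every condition is shown with an intronic region and a distal one that were not in the vehicle list, each as its central 300 bases. The first has an AP-1 and a SMAD match, the second no match, and the third an AP-1 match.
*Lamb3* upstream, all lists (chr1:195124392-195124691, plus strand): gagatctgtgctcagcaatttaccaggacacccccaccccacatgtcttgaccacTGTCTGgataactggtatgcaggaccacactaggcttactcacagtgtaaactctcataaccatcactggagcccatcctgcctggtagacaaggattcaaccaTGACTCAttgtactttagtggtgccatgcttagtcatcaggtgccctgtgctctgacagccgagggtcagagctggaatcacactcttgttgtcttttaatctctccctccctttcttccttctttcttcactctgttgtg
*Lamb3* intron 8, TGFβ and 10 min lists (chr1:195153024-195153323, plus strand): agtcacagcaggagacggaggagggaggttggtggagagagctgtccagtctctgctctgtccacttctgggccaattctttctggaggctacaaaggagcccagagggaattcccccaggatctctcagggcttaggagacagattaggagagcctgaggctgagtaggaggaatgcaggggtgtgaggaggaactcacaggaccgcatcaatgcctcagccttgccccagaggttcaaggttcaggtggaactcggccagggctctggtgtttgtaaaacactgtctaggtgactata
*Camk1g* intron, TGFβ and 10 min lists (chr1:195177901-195178200, plus strand): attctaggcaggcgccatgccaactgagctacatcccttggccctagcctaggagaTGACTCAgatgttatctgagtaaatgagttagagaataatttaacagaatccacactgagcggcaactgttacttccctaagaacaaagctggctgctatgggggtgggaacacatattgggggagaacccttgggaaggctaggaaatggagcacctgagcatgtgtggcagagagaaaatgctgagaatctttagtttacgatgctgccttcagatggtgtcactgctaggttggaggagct

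*Lamb1* (chr12:31950099-32014509, plus strand) encodes the most widespread β chain. Each list had a region in intron 3, 6.42 kb past the TSS in the TGFβ list (chr12:31956206-31956827), and one in intron 12 (chr12:31979487-31979740). Their scores were 835 and 791 with vehicle, 1000 and 917 with TGFβ, and 733 and 718 at 10 min. The TGFβ list had a pair of further regions that no other list had, in intron 12 (chr12:31977279-31977782, score 550) and over coding exon 19 (chr12:31987700-31988313, score 858). Both were below the score of 904 at which a TGFβ list of the vehicle list's length would end. The intron 12 region is shown because it was AT-rich (35% GC, no CpG in the central 300 bases) and held an AP-1 match.
*Lamb1* intron 12, TGFβ list alone (chr12:31977380-31977679, plus strand): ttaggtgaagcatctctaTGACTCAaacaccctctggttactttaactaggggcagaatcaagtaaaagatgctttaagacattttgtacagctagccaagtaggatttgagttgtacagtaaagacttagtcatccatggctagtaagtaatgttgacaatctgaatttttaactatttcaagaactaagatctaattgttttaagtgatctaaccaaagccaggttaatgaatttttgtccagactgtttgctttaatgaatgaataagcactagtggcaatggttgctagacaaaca

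*Lamb2* (chr9:108382193-108392861, plus strand) encodes the β chain best known from the neuromuscular junction and the kidney filter. It had the same 4 loci in every list. The TSS region was narrow and low in score in complete medium, at 200 bp and 556 with vehicle and 190 bp and 551 with TGFβ (chr9:108382076-108382265). In the 10 min list it spanned 1400 bp with a score of 747. At a minimum width of 300 bp the TSS region was lost from both complete-medium lists, and it was also lost from a TGFβ list of the vehicle list's length. The other 3 loci were at the TSS of *Ccdc71*, *Usp19* and *Qars*. The *Usp19* region overlapped exon 33 of *Lamb2*, the last one.

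*Lamc1* (chr1:155066052-155179916, minus strand) encodes the γ chain that most laminins share. It had the most regions of the 8 genes, and 6 of its 9 loci were in every list. The TSS region spanned 1707 bp with vehicle (score 900), 1450 bp with TGFβ (score 1000, chr1:155179687-155181136) and 1984 bp at 10 min (score 804). In the vehicle and 10 min lists no other laminin region was as wide. Intron 1, which is long, held 4 loci of all lists. The widest was chr1:155146564-155147945 in the TGFβ list, 1382 bp, with scores of 915, 1000 and 1000 in the vehicle, TGFβ and 10 min lists. A further shared locus lay in intron 26 (chr1:155071531-155071731). The TGFβ list added 2 regions. One was 18.4 kb upstream of the TSS (chr1:155198225-155198485, score 887) and overlapped a 10 min region. The other lay beyond the 3′ end of the gene (chr1:155049340-155049585, score 823), and was in no other list. The 10 min list had a region in intron 1 of its own (chr1:155121814-155122173, score 670). The upstream region, printed in full, has an AP-1 match and an ETS match with 1 mismatch.
*Lamc1* upstream, TGFβ and 10 min lists (chr1:155198225-155198485, minus strand): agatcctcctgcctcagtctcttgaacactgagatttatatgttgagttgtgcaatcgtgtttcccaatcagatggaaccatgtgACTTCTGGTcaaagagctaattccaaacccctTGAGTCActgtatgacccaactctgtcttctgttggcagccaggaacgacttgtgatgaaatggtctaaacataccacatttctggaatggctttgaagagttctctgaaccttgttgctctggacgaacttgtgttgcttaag

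*Lama4* (chr10:38685321-38829994, plus strand) encodes an α chain of vessel, muscle and fat basement membranes. None of its 4 loci was at its TSS, and the nearest region was 13.9 kb from it in the TGFβ list and 18.9 kb from it in each of the other lists. Intron 1 held a pair of loci of all lists. At chr10:38704296-38704627 the scores were 710 with vehicle, 1000 with TGFβ and 815 at 10 min. At chr10:38713752-38714883 a TGFβ region of 1132 bp (score 1000) joined 2 intervals and overlapped a vehicle region (chr10:38714521-38714953, score 623) and a 10 min region (chr10:38713740-38714157, score 675) that did not overlap each other. The TGFβ list alone had a region 15.3 kb upstream of the TSS (chr10:38669785-38670207) with the score cap, and a narrow one in intron 1 (chr10:38699270-38699491, score 605). The upstream region, without a CpG in its central 300 bases, held an AP-1 match, and the first shared intron 1 region held 2 SMAD matches.
*Lama4* upstream, TGFβ list alone (chr10:38669846-38670145, plus strand): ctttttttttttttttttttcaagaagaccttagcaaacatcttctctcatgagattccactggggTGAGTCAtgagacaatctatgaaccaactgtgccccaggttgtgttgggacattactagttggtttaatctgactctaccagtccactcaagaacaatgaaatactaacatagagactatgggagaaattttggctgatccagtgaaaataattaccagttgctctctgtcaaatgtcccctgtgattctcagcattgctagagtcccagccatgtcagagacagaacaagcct
*Lama4* intron 1, all lists (chr10:38704311-38704610, plus strand): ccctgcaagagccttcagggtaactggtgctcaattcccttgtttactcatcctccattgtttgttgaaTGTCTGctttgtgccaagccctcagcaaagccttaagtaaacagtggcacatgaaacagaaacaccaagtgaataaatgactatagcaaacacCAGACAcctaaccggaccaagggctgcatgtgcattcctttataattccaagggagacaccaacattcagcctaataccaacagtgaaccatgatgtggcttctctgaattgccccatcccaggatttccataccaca

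*Lama5* (chr2:179911078-179960564, minus strand) encodes the main α chain of adult epithelial basement membranes. It had 3 vehicle, 6 TGFβ and 6 10 min regions at 8 loci. The 10 min TSS region was narrow (chr2:179960487-179960682, 196 bp, score 804), overlapped the first exon and was lost at a minimum width of 300 bp. In complete medium the nearest regions lay about 1.8 kb upstream of the TSS. There the vehicle region spanned 350 bp (score 574) and the TGFβ region 1247 bp (chr2:179962378-179963624, score 811), which joined 2 intervals. Other loci of all lists were in intron 2 (chr2:179950729-179951069) and at the TSS of *Adrm1*, a proteasome gene. TGFβ regions absent from the vehicle list were in intron 2 (chr2:179952337-179953695, 1359 bp, score 693, also in the 10 min list), in intron 1 (chr2:179956976-179957143, score 841) and 7.26 kb upstream of the TSS (chr2:179967510-179968138, score cap). The 10 min list had a region in intron 3 of its own (chr2:179942761-179942929, score 615).

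*Lama1* (chr17:68046605-68171985, plus strand) encodes the α chain of the early embryo. No list had a region in its window of 165.4 kb. Over all protein-coding genes, with a median window of 55.43 kb, the share without a region was 24.4%. That share is not matched for length. Its TGFβ interval of 88 bp, 6728 bp past the TSS (score 608), was below the minimum width. The nearest region to its TSS was 29.0 kb away in the TGFβ list, 346 kb in the 10 min list and 1190 kb in the vehicle list.

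*Lama3* encodes the α chain of the hemidesmosome laminin. It has a long and a short group of coding transcripts, which start on the plus strand of chromosome 18 at 12492533 and, in the interior of the gene, from 12662711. The gene ends at 12741522. Neither start had a region in any list. At the internal start the nearest region was 63.4 kb away with vehicle and 19.7 kb away in each of the other lists. The locus of all lists was in intron 13 (12599010 to 12599260 in the TGFβ list), with scores of 951, 919 and 882 in the vehicle, TGFβ and 10 min lists, and held a CTCF match. The other was in intron 32 (12642691 to 12643009), with a TGFβ score of 841 and a 10 min score of 582, and held an AP-1 and a SMAD match. A TGFβ region of 150 bp lay just outside the window, 20.3 kb upstream of the first start.

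Within each list, laminin regions were set against all regions by score. At the score cap were 2 of 19 vehicle regions (10.5%, 2.94 to 31.4%), compared with 38.2% of the vehicle list. The same held for 4 of 29 10 min regions (13.8%, 5.5 to 30.6%), compared with 29.9% of that list, a share inside the interval. In the TGFβ list 13 of 33 were at the cap (39.4%, 24.7 to 56.3%), close to the 41.4% of the list. The median score of laminin regions was 710 of a list median of 889 with vehicle, 919 of 914 with TGFβ, and 733 of 818 at 10 min. The difference between lists in this respect was not tested.

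TGFβ regions that were absent from the vehicle list had lower scores at the median than shared ones, at the laminin genes and over the whole list. At the laminin genes their median score was 866.5 against 977 for shared ones, and over the whole list 742 against 1000. The median width of the laminin regions absent from the vehicle list was 447 bp, compared with 442 bp for the 19 shared laminin regions, whereas over the whole TGFβ list these medians were 281 and 546 bp. The score cap was reached by 5 of the 14 absent from the vehicle list (35.7%, 16.3 to 61.2%) and by 8 of the 19 shared ones (42.1%, 23.1 to 63.7%), compared with 13.9% and 71.6% in the whole list. Of the 5 at the cap, 3 were in the *Lamb3* window, 1 at *Lama4* and 1 at *Lama5*. These same 5 scored above the 904 of a TGFβ list as long as the vehicle list. They were the *Lamb3* TSS and intron 8 regions, the one at the *Camk1g* TSS, and the upstream regions of *Lama4* and *Lama5*.

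**Figure D5:**
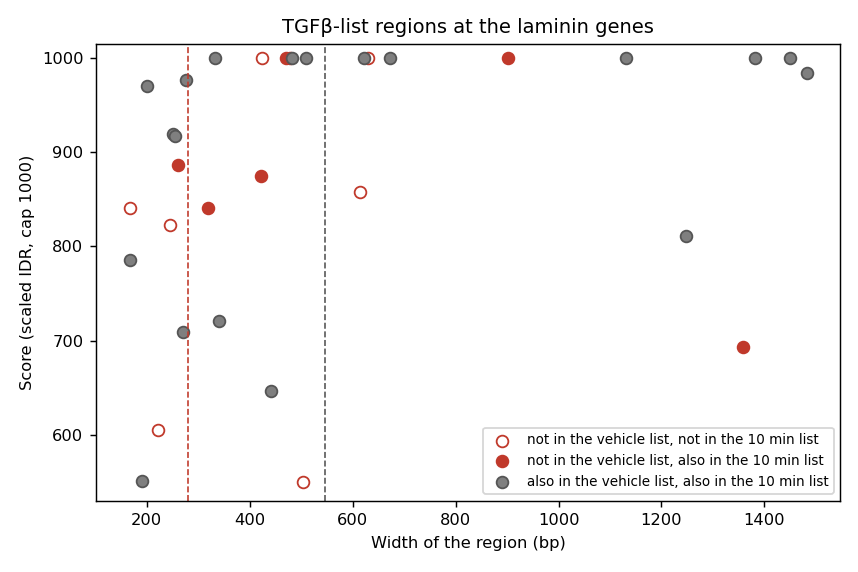
Score (y axis, scaled IDR with a cap of 1000) against width in bp (x axis) of the 33 TGFβ-list regions at the laminin genes, by whether they overlap regions of the vehicle and 10 min lists. The dashed lines mark the median widths over the whole TGFβ list of regions absent from the vehicle list (red, 281 bp) and shared with it (gray, 546 bp), and the laminin points of both kinds spread over the same widths.

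The 10 min list came from starved cells in another experiment, so it differs from the others in time, medium and library at once. Its treatment is not settled either, because the labels of a vehicle and a TGFβ sample both name it. This list overlapped 18 of the 19 vehicle laminin regions, the exception being the *Lama4* region named above. The same share over the whole vehicle list was not computed, so this count is a description. The 10 min list also overlapped 26 of the 33 TGFβ regions (78.8%, 62.2 to 89.3%), compared with 59.8% of the whole TGFβ list. Among TGFβ regions absent from the vehicle list, 7 of 14 were in the 10 min list (50%, 26.8 to 73.2%), compared with 31.5% over the whole list. These 7 were 4 at *Lamb3* and 1 each at *Lama3*, *Lama5* and *Lamc1*. None of the TGFβ-list additions at *Lama4* and *Lamb1* was among them. Of the 29 10 min regions, 3 overlapped neither complete-medium list (10.3%, 3.58 to 26.4%), compared with 12.2% of the list.

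Motif matches were counted within 200 bp of region centers for the 25 distal TGFβ regions. AP-1 matches were found in 11 (44.0%, 26.7 to 62.9%), compared with 41.2% of all distal TGFβ regions. SMAD matches were found in 10 (40.0%, 23.4 to 59.3%), compared with 40.2%. ETS and CTCF matches were found in 2 each (8.0%, 2.22 to 25%), compared with 5.89% and 4.06%. Distal laminin regions absent from the vehicle list had an AP-1 match in 7 of 12 cases (58.3%, 32 to 80.7%) and shared ones in 4 of 13 (30.8%, 12.7 to 57.6%). In the whole list the order was the other way, with 39.3% and 44.8%. The laminin intervals overlapped and included these shares, so no difference was detectable with this number of regions. Within 500 bp the SMAD share was 76.0% (56.6 to 88.5%), compared with 67.8% of all distal TGFβ regions.

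Other genes of the basement membrane were looked up for context. Of the 25 listed, 16 had a TSS region with vehicle, 16 with TGFβ and 15 at 10 min, where the shares over all genes were 41%, 47.6% and 46.3%. The TGFβ list had more regions than the vehicle list at 21 of them, fewer at 1 (*Sparc*, a matrix protein that binds collagen) and as many at 3, whereas 48.2% of all genes had more. Their windows ran from 44.12 kb (*Cd151*) to 675.7 kb (*Lama2*), against a median of 55.43 kb over all genes. Window length was not matched. In sum there were 76 vehicle, 155 TGFβ and 104 10 min regions, a TGFβ to vehicle ratio of 2.04 against 1.7 over all gene windows, where windows of neighboring genes share some regions. Among the listed genes, the windows of *Col4a1* and *Col4a2* overlap, so regions they share count for both. *Lama2*, which encodes the muscle α chain, had 3 vehicle, 4 TGFβ and 4 10 min regions, and *Lamc3* had 1 in each list. Neither had a region at a TSS in any list.

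Among 11 partners of laminin in the basement membrane, 7 had a TSS region with vehicle and 7 with TGFβ. *Pxdn*, the peroxidase that crosslinks collagen IV, had 0 vehicle, 9 TGFβ and 3 10 min regions and a TSS region in the TGFβ and 10 min lists. *Nid2* (a nidogen, which bridges laminin and collagen IV) gained a TSS region in the TGFβ list. *Ntn4* and *Sparc* had a region within 1000 bp of a TSS in the vehicle list alone. Every vehicle region in the *Ntn4* window overlapped a TGFβ region, so there the overlapping TGFβ region lay beyond 1000 bp. At *Sparc*, 2 vehicle regions overlapped no TGFβ region, as did 2 at *Hspg2* and 1 at *Col18a1*. Among 12 receptor and hemidesmosome genes, 9 had a TSS region in each list, the same genes in all lists. They included the integrin genes *Itga3*, *Itga6* and *Itgb1* and the dystroglycan gene *Dag1*, while *Itgb4*, *Bcam* and *Col17a1* had none. The numbers of vehicle, TGFβ and 10 min regions were 4, 10 and 6 at *Itga6*, 5, 7 and 6 at *Itgb4*, and 0, 2 and 2 at *Col17a1*, the hemidesmosome collagen.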

How the data were processed

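Chromatin accessibility was measured by ATAC-seq in 4 samples of NMuMG cells, 1 per group, and 3 peak lists were analyzed. Per the study's methods, the authors processed reads with the ENCODE ATAC-seq pipeline, aligned them to mm9, called peaks with macs2 (version 2.1.2) and retained peaks with an IDR of at most 0.05 between replicates. The labels give 1 sample per condition, and what served as replicates was not settled. No shift of reads to the Tn5 cut site is named for the peak calls. The deposited lists give the position of each peak and its score, the scaled IDR. They give no counts. The read totals that the study states for each library were not used here.

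Intervals under 150 bp were discarded and neighbors with a gap under 1000 bp were merged, as in the study's methods. A region kept the highest score of its peaks. Regions were shared when they overlapped by at least 1 bp. All regions lay inside the chromosomes of the NCBIM37 (mm9) reference, from which sequences were read, and gene models came from GENCODE vM1. Distal regions were over 1000 bp from any annotated TSS. Introns and exons were numbered in the longest protein-coding transcript. Shares carry 95% Wilson intervals and ratios exact 95% intervals. The functions were tested on simulated lists with known regions. Python 3.11.15, pandas 2.3.3 and SciPy 1.17.1 were used. The laminin genes and the gene lists were chosen with earlier results of these data known. All regions at a laminin TSS were named, and of the distal ones, for each gene, at least the highest-scoring TGFβ region absent from the vehicle list and the widest in all lists. The others were added after their values were seen. A listed gene and a promoter sequence are not reported here. Alternatives varied merging, minimum width, score, list length, window, TSS definition, overlap rule and motif window.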

Additional observations from a re-analysis of the deposited data

How the results depend on the processing

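No paired analysis was possible because there was 1 list for each condition, and for the same reason no replicate could be left out. Of 13 values that answer a comparison, 17 of 86 recomputed under 13 alternatives moved beyond their counting interval or by more than 1.5 times. The other 69 did not, including those that an alternative cannot touch by construction. With a minimum width of 300 bp, 1 laminin gene had a vehicle TSS region and 21 TGFβ regions were left. With peaks at or above their list's median score, 0 laminin genes had a TSS region with vehicle and 0 at 10 min, and 4 vehicle, 16 TGFβ and 5 10 min regions were left, a TGFβ to vehicle ratio of 4.0. Of those, 50% of vehicle regions overlapped a TGFβ region, 12.5% of TGFβ regions a vehicle region and 25% a 10 min region, and 43.8% of TGFβ regions were at a TSS. In a TGFβ list as long as the vehicle list, 18 TGFβ regions were left, the ratio was 0.947, and 68.4% of vehicle regions overlapped one. These alternatives use fewer regions by construction, and any other cause was not tested. Whole-list values were not computed for them, except that the shortened TGFβ list equals the vehicle list in length. Windows with 50 kb on both sides held 52 TGFβ regions. A motif search within 500 bp, which reads more sequence, gave a SMAD share of 76.0%, compared with 67.8% over all distal TGFβ regions. Under the other alternatives the ratio lay between 1.57 and 2.1. Of 336 values for single genes, 56 moved. The *Lamb3* TSS region of the TGFβ list was found under every alternative that bears on it, while that of the 10 min list was lost when low-scoring peaks were removed at the list median. The lists hold no read counts per region, so a region missing from a list cannot be read as closed.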
